A study of Mus musculus with 17 samples.

Results

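The G1 cyclins, the cyclin-dependent kinases that they switch on and the phosphatase Cdc25a were followed with and without gamma-irradiation in sorted mouse intestinal cells. The sample labels name these cells ISC, for intestinal stem cells. The 9 genes were Ccnd1, Ccnd2, Ccnd3, Ccne1, Ccne2, Cdk4, Cdk6, Cdk2 and Cdc25a, taken by name from the gene names on the array. They were read by 13 probes, and all 13 passed the filter on dim probes, among 27799 genes tested on the array. All mice carried the LGR5-GFPki allele, a knock-in that marks Lgr5-expressing cells with green fluorescent protein. The mice were given 12 Gy of gamma-irradiation or left non-irradiated, and at 3 h LGR5hi and LGR5lo cells were sorted by fluorescence. The groups were non-irradiated LGR5hi (n = 4), irradiated LGR5hi (n = 4), non-irradiated LGR5lo (n = 5) and irradiated LGR5lo (n = 4). Every group held 2 female samples, with 3 male samples in non-irradiated LGR5lo and 2 in each of the others. The labels do not say whether a sample came from 1 mouse or from several. P-values therefore measure the spread between these samples. The age of the mice and the fluorescence limits of the gates are not given in the sources used here.

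Cyclins of the D type are made when growth signals, among them Wnt signalling in the intestinal crypt, reach a cell in G1. They bind CDK4 and CDK6, and the complexes phosphorylate the retinoblastoma protein, which then releases E2F transcription factors. E2F drives the E type cyclins, whose partner CDK2 carries the cell into S phase, and CDC25A removes the inhibitory phosphates that hold CDK2 back. After DNA damage the p53 target p21, the product of Cdkn1a, binds and inhibits cyclin-CDK complexes, while CDC25A protein is degraded after phosphorylation by checkpoint kinases, a step that an RNA measurement does not see.

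RNA was measured on single-colour Agilent arrays, 17 in all. Levels are given as normalized log2 signal, the log2 intensity minus that array's 75th percentile. They allow a probe to be compared between arrays but not with another probe, so no order of levels among the 9 genes was read. A gene was called where its adjusted p was under 0.05 in limma, with Benjamini-Hochberg adjustment over all 27799 genes. The error after ± is the standard error from limma for a log2 difference and the SD for a level. On the 16 arrays with whole files the 75th percentile lay between 286 and 627 intensity units. The share of spots that cleared the background was 58.9% to 73.9% on 15 of these arrays, and 95.6% on non-irradiated LGR5lo replicate 2, which stood apart. For non-irradiated LGR5hi replicate 1 the scanner file was damaged and the array was rebuilt from the deposited series table, so its spots carry no background flag. Lgr5 itself, the receptor that defines the sort, had a normalized log2 signal of 4.23 ± 0.31 (SD, n = 4) in non-irradiated LGR5hi cells and 1.09 ± 0.51 (SD, n = 5) in non-irradiated LGR5lo cells. After irradiation it was 2.71 ± 0.33 (SD, n = 4) in LGR5hi and -0.18 ± 0.47 (SD, n = 4) in LGR5lo cells.

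In LGR5hi cells 1 of the 9 genes was called after irradiation, Cdk2, which fell, against 13.5% of all genes called either way (6.18% higher and 7.28% lower). In LGR5lo cells 1 of 9 was called, Ccnd1, which rose, against 7.46% of all genes (4.46% higher and 3.00% lower). At an unadjusted p under 0.05 there were 4 of the 9 in each sort, against 6449 and 6701 of all 27799 genes. The median irradiation difference of the 9 genes was -0.24 in LGR5hi and 0.00 in LGR5lo cells on the log2 scale, against -0.02 and -0.13 for all genes. None of the 9 had a called difference between the irradiation effects of the sorts, and none reached an unadjusted p under 0.05 there, against 0.0396% of all genes called (0.036% higher and 0.0036% lower) and 1889 at that unadjusted p, in limma. The plots of the values on each array and of the irradiation differences show this spread of responses within the family.

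**Figure D1:**
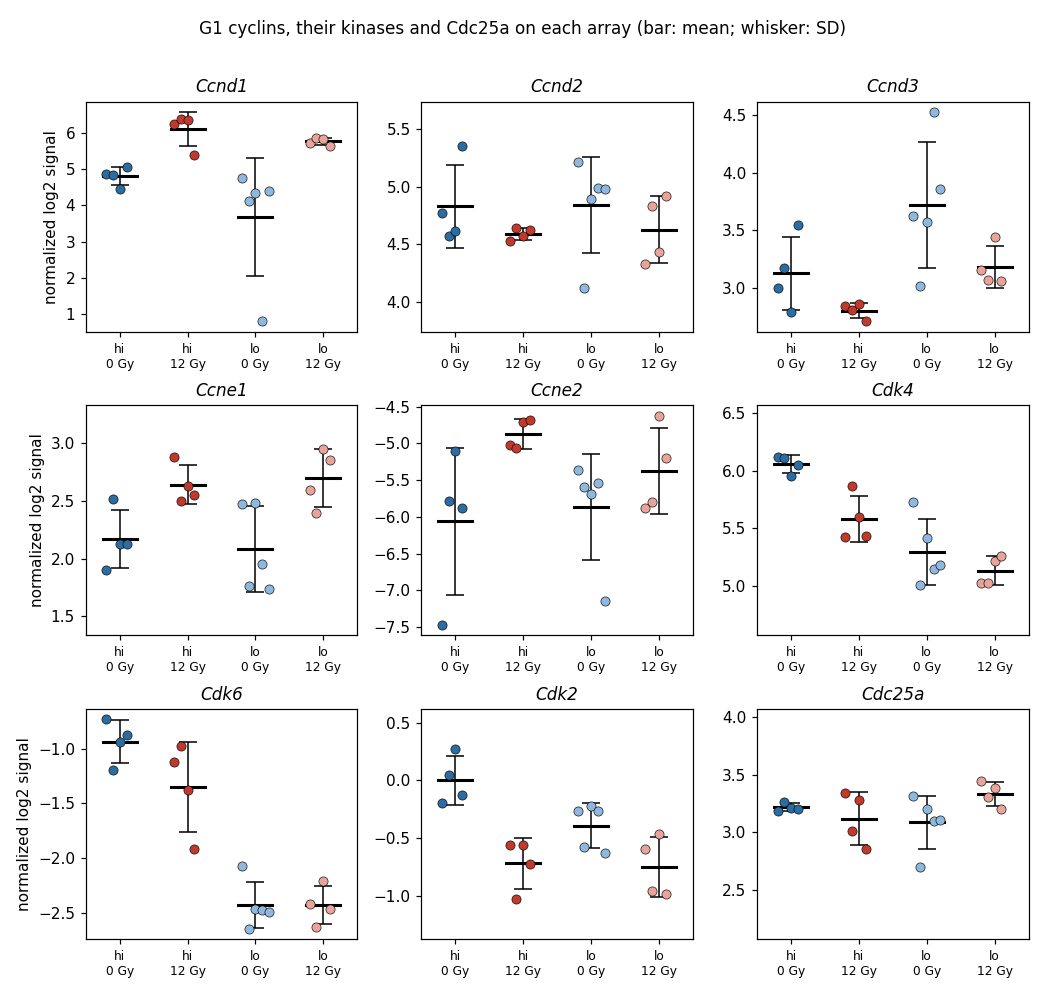
Normalized log2 signal of each of the 9 genes (1 panel each, with its own vertical scale spanning at least 2 log2 units) in LGR5hi (hi) and LGR5lo (lo) cells at 0 Gy and 12 Gy. Points are arrays, the horizontal bar is the mean and the whisker the SD; Ccnd1 is higher on every irradiated array than on any non-irradiated array of the same sort, and 1 non-irradiated LGR5lo array lies at 0.79.

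**Figure D2:**
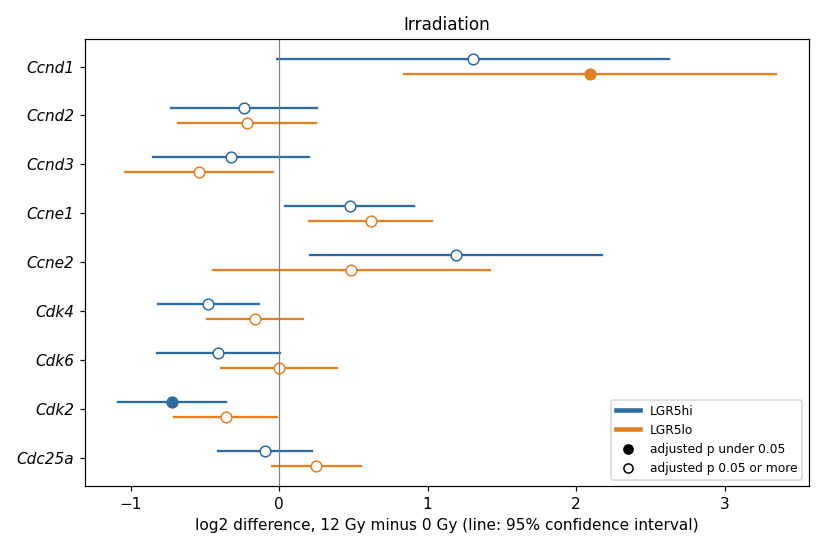
Irradiation difference (12 Gy minus 0 Gy, log2) of each gene in LGR5hi (blue) and LGR5lo (orange) cells with its 95% confidence interval from the limma fit. Filled points have an adjusted p under 0.05: Cdk2 in LGR5hi cells at -0.72 and Ccnd1 in LGR5lo cells at 2.09.

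Ccnd1 encodes cyclin D1, a partner of CDK4 and CDK6 and a transcriptional target of several growth pathways. In non-irradiated LGR5hi cells its normalized log2 signal was 4.87, 4.85, 4.46 and 5.05, and in irradiated LGR5hi cells it was 6.26, 6.41, 6.37 and 5.40. In LGR5lo cells the non-irradiated arrays gave 4.75, 4.12, 4.35, 0.79 and 4.40, and the irradiated arrays gave 5.73, 5.88, 5.84 and 5.65. Every irradiated array of either sort thus lay above every non-irradiated array of that sort, while non-irradiated LGR5lo replicate 4 lay far below the rest of its group. The difference was 1.30 ± 0.62 in LGR5hi cells (2.47-fold higher, adjusted p = 0.222, limma), which was not called, and 2.09 ± 0.59 in LGR5lo cells (4.27-fold higher, adjusted p = 0.0414, limma), which was. Groups that did not overlap between 0 and 12 Gy were seen for 23.7% of all genes in LGR5hi and 10.8% in LGR5lo cells.

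These tests of Ccnd1 turn on non-irradiated LGR5lo replicate 4, whose value was -3.62 from the mean of 4.41 of the other 4 arrays of its group. Of 27795 genes, 1.41% deviated further downwards on that array. The Ccnd1 spot there read 501.5 intensity units, was well above background and carried no outlier flag. The SD of its pixels over their mean was 0.187, against 0.0689 to 0.173 on the other 15 arrays with a whole file. Because the fit pools its spread over the groups, this single array widened the error of Ccnd1 in both sorts. Without it the irradiation difference was 1.30 ± 0.22 in LGR5hi (adjusted p = 0.000762, limma) and 1.37 ± 0.22 in LGR5lo cells (adjusted p = 0.00123, limma), so that both were called and the sizes lay close together. The difference between the effects was -0.79 (95% confidence interval -2.60 to 1.03) with all arrays and -0.06 ± 0.31 (adjusted p = 0.940, limma) without that array.

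The call of Ccnd1 in LGR5lo cells was not stable otherwise. Leaving out each of the 17 arrays in turn gave differences from 1.37 to 2.36 and adjusted p from 0.00123 to 0.105 (limma), with the call lost for 11 arrays. These were the 4 non-irradiated LGR5hi, the 4 irradiated LGR5lo and irradiated LGR5hi replicates 1, 2 and 3. With LGR5hi and LGR5lo arrays of the same arm and number taken as pairs (a random block), the adjusted p was 0.0516 (limma). Under quantile normalization the difference was 1.91 (adjusted p = 0.0755), and the 1 gene called in LGR5lo cells there was Ccnd3 (-0.73, adjusted p = 0.0387, limma). Within slides the difference was 1.37 ± 0.28 on the slide of replicates 1 and 2 (adjusted p = 0.191) and 3.18 ± 1.08 on the slide of replicates 3 and 4 (adjusted p = 0.246), which holds the low array. In LGR5hi cells the within-slide values were 1.48 ± 0.28 (adjusted p = 0.0871) and 1.13 ± 1.08 (adjusted p = 0.628).

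**Figure D3:**
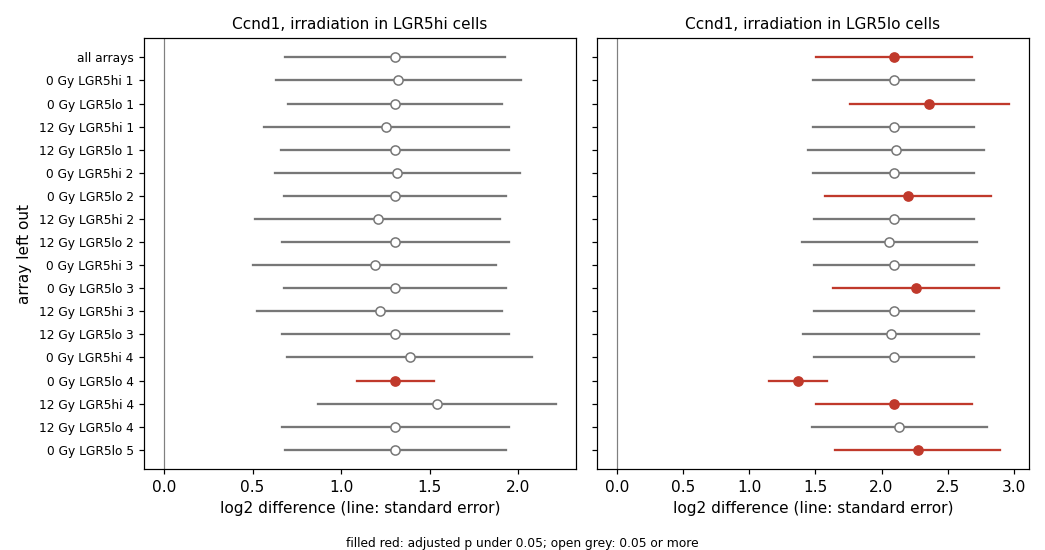
Irradiation difference of Ccnd1 (log2, with the standard error of the fit) with all arrays and with each of the 17 arrays left out, in LGR5hi (left) and LGR5lo cells (right). Filled red points have an adjusted p under 0.05; leaving out non-irradiated LGR5lo replicate 4 narrows the error in both panels, to 0.22, and moves the LGR5lo value from 2.09 to 1.37.

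Neither of the other D type cyclins was called after irradiation. Ccnd2, which encodes cyclin D2, was 4.77, 4.57, 4.62 and 5.35 in non-irradiated and 4.53, 4.64, 4.57 and 4.63 in irradiated LGR5hi cells on the normalized log2 scale. In LGR5lo cells it was 5.22, 4.12, 4.90, 4.99 and 4.98 without and 4.33, 4.83, 4.43 and 4.92 with irradiation. The groups overlapped in both sorts, and neither difference passed the test (-0.24, 95% confidence interval -0.73 to 0.25 in LGR5hi, adjusted p = 0.653, and -0.21, interval -0.68 to 0.25 in LGR5lo, adjusted p = 0.536, limma). Under median centring the value in LGR5lo cells was 0.32 (adjusted p = 0.659), of the opposite sign.

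Ccnd3, the gene of cyclin D3, was 3.00, 3.18, 2.79 and 3.54 in non-irradiated and 2.84, 2.81, 2.86 and 2.71 in irradiated LGR5hi cells. In LGR5lo cells it was 3.63, 3.02, 3.57, 4.53 and 3.86 without and 3.16, 3.07, 3.44 and 3.06 with irradiation, on the normalized log2 scale. Its highest value of all, 4.53, was on the same array that held the lowest Ccnd1 value. The difference in LGR5lo cells was -0.54 ± 0.24 (adjusted p = 0.178, limma), and -0.72 (adjusted p = 0.0393, limma) without the array that stood apart, non-irradiated LGR5lo replicate 2. It was -0.34 (adjusted p = 0.257) without non-irradiated LGR5lo replicate 4, -0.21 on the slide of replicates 1 and 2 (adjusted p = 0.700) and -0.01 under median centring (adjusted p = 0.995, limma). A second Ccnd3 probe gave -0.34 (adjusted p = 0.374, limma over all kept probes). In LGR5hi cells the difference was -0.32 (adjusted p = 0.527). Over the 17 arrays the values of Ccnd1 and Ccnd3 had a Pearson correlation of -0.76, and of -0.82 without the rebuilt array and the one that stood apart. Without non-irradiated LGR5lo replicate 4 it was -0.46, and the points share the treatment groups and each array's scaling.

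Ccne1 encodes cyclin E1, a classical E2F target that activates CDK2. It was 1.90, 2.51, 2.13 and 2.13 in non-irradiated and 2.88, 2.50, 2.63 and 2.55 in irradiated LGR5hi cells, so that only the highest non-irradiated array reached into the irradiated range. In LGR5lo cells the normalized log2 signal was 2.48, 1.77, 2.48, 1.95 and 1.74 without and 2.60, 2.40, 2.95 and 2.85 with irradiation. The differences were 0.47 ± 0.21 in LGR5hi (adjusted p = 0.167, limma) and 0.62 ± 0.19 in LGR5lo cells (1.53-fold, adjusted p = 0.0691, limma), and neither was called. The LGR5lo difference passed without non-irradiated LGR5lo replicate 1 (0.71, adjusted p = 0.0376) or replicate 3 (0.72, adjusted p = 0.0376). A second, dimmer Ccne1 probe gave 0.39 and 0.28 in the sorts (adjusted p = 0.502 and 0.511, limma over all kept probes). The aligned span that the files give for the tested probe is 24 bases, against 60 for the other 12 probes.

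Ccne2, the gene of cyclin E2, lay close to background: its probe was well above it on 1 of 3 flagged non-irradiated LGR5hi arrays, 2 of 4 irradiated LGR5hi, 0 of 5 non-irradiated LGR5lo and 3 of 4 irradiated LGR5lo arrays. The normalized log2 signal was -7.47, -5.79, -5.10 and -5.88 in non-irradiated and -5.02, -5.07, -4.71 and -4.68 in irradiated LGR5hi cells. These groups did not overlap, but the difference of 1.19 ± 0.46 was not called (adjusted p = 0.114, limma). It was 0.72 (adjusted p = 0.356) without the rebuilt array, non-irradiated LGR5hi replicate 1, and 0.27 (adjusted p = 0.616) with normexp background correction. In LGR5lo cells no non-irradiated array was well above background, so no fold is given. The means were -5.38 with and -5.87 without irradiation, and the fitted difference of 0.49 had an adjusted p of 0.483 (limma). That value was 0.00 with normexp background correction and -0.37 on the slide of replicates 1 and 2, so its direction was not settled.

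Cdk2, the partner of cyclins E and A, fell in LGR5hi cells. Its normalized log2 signal was -0.20, 0.05, 0.27 and -0.12 without irradiation and -0.56, -1.03, -0.56 and -0.73 with it, and the groups did not overlap. The difference was -0.72 ± 0.17 (1.65-fold lower, adjusted p = 0.00921, limma). It kept its call without each of the 17 arrays in turn, with values from -0.79 to -0.62 and adjusted p from 0.00579 to 0.0359. On each slide alone the size was -0.72, with an adjusted p of 0.392 and 0.173 (limma). Centring each array on its median in place of the 75th percentile left the size at -0.74 and took the adjusted p to 0.519. In LGR5lo cells Cdk2 was -0.27, -0.58, -0.22, -0.27 and -0.63 without and -0.60, -0.96, -0.47 and -0.99 with irradiation, overlapping ranges with a difference of -0.36 ± 0.16 (adjusted p = 0.191, limma). That LGR5lo estimate turned to 0.17 (adjusted p = 0.797) under median centring, so no direction is given for it. The difference between the sorts' effects was -0.36 (95% confidence interval -0.86 to 0.14, adjusted p = 0.715, limma).

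Cdk4 encodes the main kinase partner of the D type cyclins. In LGR5hi cells its tested probe gave 6.12, 6.11, 5.95 and 6.05 without and 5.43, 5.86, 5.60 and 5.44 with irradiation, on the normalized log2 scale. All 4 irradiated arrays were below all 4 non-irradiated arrays, but the difference of -0.48 ± 0.16 (adjusted p = 0.0630, limma) was just outside the threshold. It passed without non-irradiated LGR5lo replicate 1 (adjusted p = 0.0298), non-irradiated LGR5lo replicate 2 (0.0315) or irradiated LGR5hi replicate 2 (-0.57, adjusted p = 0.0365). The other Cdk4 probes gave -0.52 (adjusted p = 0.0324) and -0.38 (adjusted p = 0.157, limma over all kept probes). In LGR5lo cells the tested probe gave 5.73, 5.0, 5.41, 5.15 and 5.18 without and 5.03, 5.03, 5.22 and 5.26 with irradiation, with overlapping ranges and a difference of -0.16 (95% confidence interval -0.49 to 0.16, adjusted p = 0.499), which was 0.37 (adjusted p = 0.559) under median centring.

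Cdk6, the second D cyclin kinase, was -0.73, -1.20, -0.94 and -0.88 in non-irradiated and -1.12, -0.98, -1.38 and -1.91 in irradiated LGR5hi cells. These ranges overlapped, and the difference of -0.41 ± 0.19 was not called (adjusted p = 0.220, limma). In LGR5lo cells the normalized log2 signal was -2.07, -2.64, -2.47, -2.47 and -2.49 without and -2.41, -2.63, -2.20 and -2.46 with irradiation. The means differed by 0.00 (95% confidence interval -0.39 to 0.39, adjusted p = 0.9995, limma).

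Cdc25a, the phosphatase that activates CDK2 complexes, had a narrow range in non-irradiated LGR5hi cells, at 3.18, 3.26, 3.21 and 3.20. Irradiated LGR5hi arrays gave 3.34, 3.01, 3.28 and 2.85, on both sides of that range. In LGR5lo cells it was 3.31, 2.70, 3.20, 3.1 and 3.11 without and 3.44, 3.30, 3.39 and 3.20 with irradiation. Neither difference was called (-0.10, 95% confidence interval -0.41 to 0.22, adjusted p = 0.811 in LGR5hi, and 0.25, interval -0.05 to 0.55, adjusted p = 0.281 in LGR5lo, limma). Its relatives Cdc25b and Cdc25c, phosphatases that act mainly on CDK1 before mitosis, fell in both sorts. For Cdc25b the log2 differences were -2.73 ± 0.24 (adjusted p = 1.67e-06) in LGR5hi and -1.55 ± 0.23 (adjusted p = 0.000473) in LGR5lo cells (limma). For Cdc25c the differences were -3.51 ± 0.35 (adjusted p = 4.64e-06) and -2.23 ± 0.33 (adjusted p = 0.000464).

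Between the sorts, without irradiation, 2 of the 9 genes were called, Cdk4 and Cdk6, both higher in LGR5hi cells, against 9.53% of all genes called either way (4.61% higher and 4.92% lower). After irradiation 1 of 9 was called, Cdk6, again higher in LGR5hi cells, against 6.28% of all genes (2.2% higher and 4.08% lower). The 9 genes' median difference (LGR5hi minus LGR5lo) was 0.13 without and 0.03 with irradiation, against -0.08 and 0.05 for all genes.

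**Figure D4:**
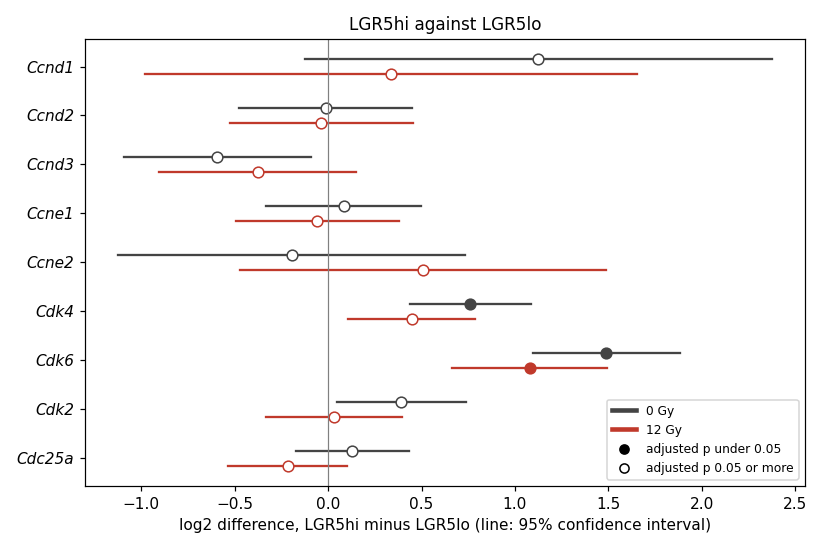
Difference between the sorts (LGR5hi minus LGR5lo, log2) of each gene at 0 Gy (dark) and 12 Gy (red) with its 95% confidence interval from the limma fit. Filled points have an adjusted p under 0.05: Cdk6 at 1.49 and 1.08 and Cdk4 at 0.76 without irradiation.

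Every LGR5hi array was above every LGR5lo array of the same arm for Cdk6. The difference was 1.49 ± 0.18 (2.81-fold, adjusted p = 7.43e-05, limma) without and 1.08 ± 0.19 (2.11-fold, adjusted p = 0.00262, limma) with irradiation. Leaving out each array in turn gave 1.42 to 1.58 and 0.95 to 1.27, with the calls kept. On the slide of replicates 1 and 2 alone the values were 1.39 (adjusted p = 0.166) and 1.47 (adjusted p = 0.116), and after irradiation on the slide of replicates 3 and 4 it was 0.69 (adjusted p = 0.313, limma). The call after irradiation was also lost under quantile normalization (0.99, adjusted p = 0.411) and median centring (1.0, adjusted p = 0.377).

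Cdk4 was higher in LGR5hi cells by 0.76 ± 0.15 without irradiation (1.70-fold, adjusted p = 0.00437, limma), with no overlap of the groups. Its 3 probes, of which the outermost start 1117 bases apart in the genome, gave 0.76, 0.69 and 0.63 (adjusted p = 0.00594, 0.00673 and 0.0167, limma over all kept probes). The call was lost in a fit of the compared groups alone (adjusted p = 0.0555), within each slide (0.75 and 0.72, adjusted p = 0.527 and 0.166) and under median centring, where the value was 1.23 (adjusted p = 0.0853). After irradiation the groups still did not overlap, and the difference was 0.45 ± 0.16 (1.36-fold, adjusted p = 0.131, limma). Over the 17 arrays Cdk4 and Cdk6 had a Pearson correlation of 0.89, the highest of any pair of the 9 genes, and of 0.85 without the rebuilt array and the one that stood apart; the points share the sort.

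The RefSeq promoter table (build GRCm38.p6) held 6 of the 9 genes, and the 250 bases before the gene start are shown for the 3 kinases whose differences passed a test. In the Cdk4 window, chr10:127063285-127063534 on the plus strand, the word CACGTG, the palindromic E-box bound by MYC and related factors, occurs 4 times, at 172, 118, 98 and 11 bases before the start. The Cdk6 window, chr5:3343643-3343892 on the plus strand, holds it once, at 220 bases. The Cdk2 window, chr10:128705052-128705301 on the minus strand, holds none but has 1 E2F word, 140 bases before the start. E2F words searched on both strands were TTTCCCGC, TTTCGCGC, TTTGCCGC and TTTGGCGC. Capitals mark these matches.
Cdk4: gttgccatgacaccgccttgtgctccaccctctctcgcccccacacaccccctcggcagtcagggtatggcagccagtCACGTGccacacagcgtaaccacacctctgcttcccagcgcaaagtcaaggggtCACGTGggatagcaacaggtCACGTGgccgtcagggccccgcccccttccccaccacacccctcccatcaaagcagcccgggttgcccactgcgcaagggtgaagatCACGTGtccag
Cdk6: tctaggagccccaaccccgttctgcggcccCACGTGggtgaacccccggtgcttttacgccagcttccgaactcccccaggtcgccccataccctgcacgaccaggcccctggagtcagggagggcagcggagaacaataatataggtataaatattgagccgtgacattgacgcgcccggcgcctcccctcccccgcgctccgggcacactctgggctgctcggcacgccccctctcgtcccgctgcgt
Cdk2: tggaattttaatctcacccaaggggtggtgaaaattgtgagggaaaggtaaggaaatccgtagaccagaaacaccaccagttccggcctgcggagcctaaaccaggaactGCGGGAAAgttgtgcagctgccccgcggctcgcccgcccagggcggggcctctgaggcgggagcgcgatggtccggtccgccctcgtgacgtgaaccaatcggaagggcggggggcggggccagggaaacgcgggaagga

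Of 32851 RefSeq promoter windows of the same length, 6.02% held CACGTG and 1.86% an E2F word. The windows of Cdk4, Cdk6 and Cdk2 had a GC content of 64.4%, 66% and 63.2%, against a median of 52.4% over all windows. The shares were not matched for GC content. Cdc25a also held 1 E2F word, 67 bases before its start, and no match to either was found in the windows of Ccne1 and Ccnd3. These matches are words in a sequence and were not tied to binding of any factor.

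The remaining cyclins did not separate the sorts by the test. Ccnd1 differed by 1.13 ± 0.59 without irradiation (adjusted p = 0.247, limma), which was 0.40 ± 0.22 (adjusted p = 0.255) without non-irradiated LGR5lo replicate 4, and by 0.34 ± 0.62 with irradiation (adjusted p = 0.884). Ccnd3 ran the other way, lower in LGR5hi cells by estimate: -0.59 ± 0.24 (adjusted p = 0.130) without and -0.38 ± 0.25 (adjusted p = 0.497) with irradiation, where the groups did not overlap. The first of these passed without non-irradiated LGR5lo replicate 2 (-0.77, adjusted p = 0.0257, limma) and under quantile normalization (-0.76, adjusted p = 0.0300). It was -0.39 (adjusted p = 0.214) without non-irradiated LGR5lo replicate 4, -0.23 on the slide of replicates 1 and 2 (adjusted p = 0.643) and -0.12 under median centring (adjusted p = 0.872). The second Ccnd3 probe gave -0.39 without and -0.39 with irradiation (adjusted p = 0.347 and 0.540, limma over all kept probes). Cdk2 was higher in non-irradiated LGR5hi than LGR5lo cells on every array, by 0.39 ± 0.16, without a call (adjusted p = 0.147, limma). The nearest arrays were the rebuilt one, non-irradiated LGR5hi replicate 1, at -0.198 and non-irradiated LGR5lo replicate 3 at -0.219. The tolerance of the rebuilding was 0.02 log2. Groups that did not overlap between the sorts were seen for 10.9% of all genes without and 21.1% with irradiation, and for 3 of the 9 genes in each arm.

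The sorts differed in other cell types' markers as well, in these bulk samples, where fewer cells of a type and less RNA per cell cannot be told apart. Of all genes 4.61% were called higher and 4.92% lower in LGR5hi cells without irradiation, and 2.2% and 4.08% with it. Of 8 stem cell markers, 8 were called higher in LGR5hi cells without and 7 with irradiation. That list includes Lgr5 itself, which defines the sort. All 7 enteroendocrine markers were called lower in LGR5hi cells in both arms. Goblet markers were lower for 4 of 5 in both arms and tuft markers for 5 and then 3 of 5. The summed level of the enteroendocrine list on the log2 scale ran from 4.0 to 5.55 in non-irradiated LGR5hi and from 8.61 to 9.11 in non-irradiated LGR5lo cells. No Paneth (4 tested) or enterocyte marker (8 tested) was called between the sorts in limma. At an unadjusted p under 0.05 there were 0 of each list without and 2 of each with irradiation. Of all 27799 genes, 6955 without and 4972 with irradiation were under that p. Of the 5 epithelial, 7 leukocyte and 6 stromal and endothelial markers tested, 1 of each list was lower in LGR5hi cells without irradiation. After irradiation the stem cell markers fell, 7 of 8 in LGR5hi and 5 of 8 in LGR5lo cells. The summed level of that list went from 8.36 to 8.75 down to 7.44 to 7.93 in LGR5hi cells. Among all genes 6.18% were called higher and 7.28% lower after irradiation in LGR5hi cells, and 4.46% and 3% in LGR5lo cells. In each of the 9 other marker lists 0 to 2 genes were called after irradiation in either sort. In LGR5hi cells 2 of 5 epithelial, 2 of 7 enteroendocrine, 1 of 5 tuft and 1 of 7 leukocyte markers rose. There 1 of 2 erythrocyte markers fell. In LGR5lo cells 2 enteroendocrine, 1 epithelial, 1 leukocyte and 1 stromal or endothelial marker rose, and 1 leukocyte marker fell. The summed epithelial level in LGR5hi cells went from 9.15 to 9.27 up to 10.12 to 10.43. The tuft level there went from 0.80 to 2.05 up to 2.40 to 2.94, and the erythrocyte level from -1.90 to -0.76 down to -3.06 to -2.06. In LGR5lo cells the enteroendocrine level went from 8.61 to 9.11 up to 9.13 to 9.84. The part of these shifts in the differences of Cdk4, Cdk6, Cdk2 and Ccnd1 was not tested.

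The genes around the G1 cyclins were described from 8 lists with 73 genes, all of them tested. In LGR5hi cells 6 rose and 20 fell after irradiation, and in LGR5lo cells 8 rose and 12 fell. Among all genes 6.18% were called higher and 7.28% lower in LGR5hi cells, and 4.46% and 3% in LGR5lo cells. None of the 73 had a called difference between the sorts' irradiation effects in limma, against 0.0396% of all genes. There 12 of the 73 had an unadjusted p under 0.05, against 1889 of all 27799 genes. Between the sorts 13 were higher and 4 lower in LGR5hi cells without irradiation, and 6 higher and 4 lower with it. For all genes these shares were 4.61% and 4.92% without and 2.2% and 4.08% with irradiation. The bar plot of called genes by list sets the lists side by side.

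**Figure D5:**
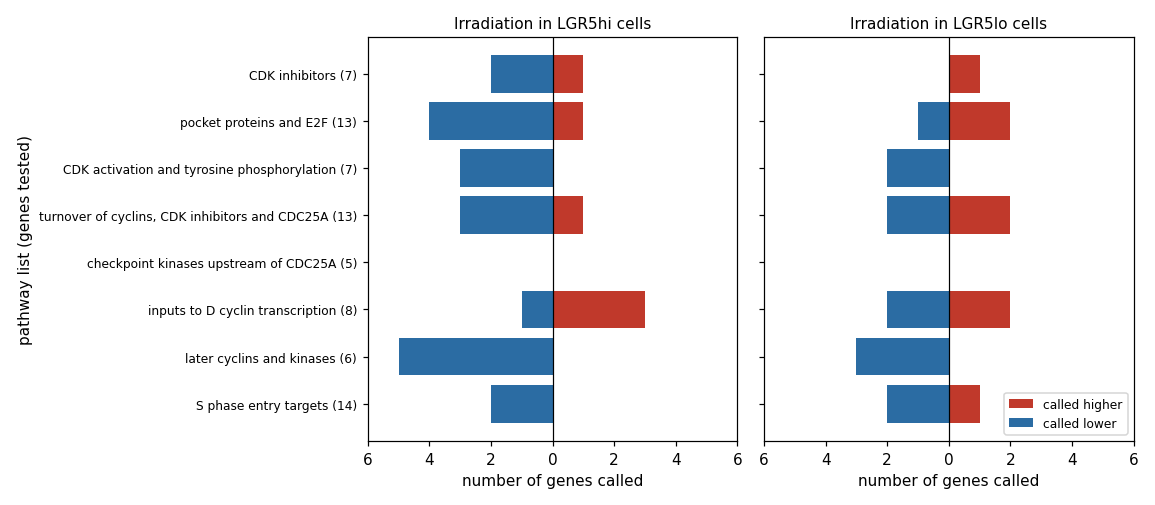
Number of genes called lower (blue, to the left) and higher (red, to the right) after irradiation in LGR5hi and LGR5lo cells for each of 8 lists around the G1 cyclins, with the number of genes tested in parentheses. Falls are most frequent among the later cyclins and kinases in LGR5hi cells, with 5 of 6, against 7.28% of all genes called lower.

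Among the 7 CDK inhibitors, Cdkn1a (p21) rose by 4.91 ± 0.31 in LGR5hi (adjusted p = 4.14e-08, limma) and by 2.90 ± 0.30 in LGR5lo cells (adjusted p = 1.44e-05). In LGR5hi cells Cdkn1b (p27), an inhibitor of CDK2 complexes, fell by 1.48 ± 0.21 (adjusted p = 0.000135) and Cdkn2d (p19), which binds CDK4 and CDK6, fell by 1.08 ± 0.28 (adjusted p = 0.0148). The call of Cdkn2d was lost without non-irradiated LGR5hi replicate 1 or 3, with an adjusted p of up to 0.0582. The inhibitors thus moved in both directions in the same bulk LGR5hi samples. Without irradiation Cdkn1a was lower in LGR5hi than LGR5lo cells, at -2.43 ± 0.30 (adjusted p = 6.20e-05, limma), as were Cdkn1c (-3.0 ± 0.25) and Cdkn2b (-2.73 ± 0.71). Of the 7 inhibitors 3 were called lower in that comparison, against 4.92% of all genes.

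Of the 13 pocket protein and E2F genes, 1 rose and 4 fell in LGR5hi cells, against 6.18% of all genes called higher and 7.28% lower. Rb1, the retinoblastoma gene and substrate of the CDK4 and CDK6 complexes, rose by 1.67 ± 0.25 in LGR5hi (adjusted p = 0.000212, limma) and by 1.14 ± 0.23 in LGR5lo cells (adjusted p = 0.00651). Tfdp2, an E2F dimer partner, fell in both, with differences of -1.34 ± 0.21 and -0.97 ± 0.20. In LGR5hi cells E2f8, a repressor of the family, fell by 1.38 ± 0.24 and the activator E2f2 fell by 1.11 ± 0.22. Tfdp1 rose in LGR5lo cells by 0.64 ± 0.16. The list's median difference was 0.05 in LGR5hi and 0.17 in LGR5lo cells, against -0.02 and -0.13 for all genes.

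Inputs to D cyclin transcription moved in both directions. Myc rose by 0.66 ± 0.19 in LGR5hi (adjusted p = 0.0276, limma) and by 0.80 ± 0.18 in LGR5lo cells (adjusted p = 0.0120). Egfr, the receptor of epidermal growth factor, rose by 1.42 ± 0.24 and 1.37 ± 0.23, and Fos by 1.79 ± 0.38 in LGR5hi cells. The Wnt pathway transcription factor Tcf7 fell in both, with differences of -0.71 ± 0.16 and -0.99 ± 0.15, and Lef1 fell by 1.48 ± 0.39 in LGR5lo cells. Between the sorts Myc, Tcf7 and Lef1 were higher in LGR5hi cells in both arms, at 0.93 ± 0.18, 1.12 ± 0.15 and 1.57 ± 0.39 without irradiation.

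The genes that act on cyclins and CDKs after they are made also split. Fbxw7, the substrate receptor that marks cyclin E for degradation, rose by 0.80 ± 0.14 in LGR5hi (adjusted p = 0.000945, limma) and by 0.52 ± 0.13 in LGR5lo cells (adjusted p = 0.0267). The call rests on its brightest probe: with the mean of the gene's probes the values were 0.27 (adjusted p = 0.847) and 0.96 (adjusted p = 0.202, limma). The mitotic ubiquitin ligase activator Cdc20 fell in both (-1.75 ± 0.24 and -1.13 ± 0.23), as did Cks1b, a small CDK-binding protein needed for p27 turnover (-1.11 ± 0.18 and -0.61 ± 0.17). Fzr1 fell by 0.77 ± 0.19 in LGR5hi cells and Fbxo4 rose by 0.70 ± 0.20 in LGR5lo cells. The inhibitory kinase Wee1 fell by 0.93 ± 0.20 in LGR5hi cells. None of the 5 checkpoint kinases upstream of CDC25A was called after irradiation in limma, and 0 had an unadjusted p under 0.05 in either sort. Their median differences were -0.19 in LGR5hi and 0.08 in LGR5lo cells. Of all genes 13.5% were called in LGR5hi and 7.46% in LGR5lo cells. An unadjusted p under 0.05 was found for 6449 and 6701 of all 27799 genes in the sorts.

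Of 6 genes of later cyclins and their kinase, 5 fell in LGR5hi cells. Of all genes 7.28% were called lower in LGR5hi and 3% in LGR5lo cells. The log2 difference was -3.13 ± 0.30 for Ccnb2 (adjusted p = 3.12e-06, limma) and -2.04 ± 0.23 for Ccnb1, both mitotic cyclins, -1.68 ± 0.23 for Ccna2 and -1.14 ± 0.23 for the mitotic kinase Cdk1, with Ccnf the remaining one. In LGR5lo cells 3 of 6 fell, at -1.81 ± 0.28 for Ccnb2, -1.0 ± 0.22 for Ccnb1 and -0.84 ± 0.22 for Ccna2. The list's median difference was -1.41 in LGR5hi and -0.67 in LGR5lo cells. Of 14 targets used at the entry to S phase, 2 fell in LGR5hi cells, among them Tk1 (-1.49 ± 0.26), against 7.28% of all genes called lower. In LGR5lo cells 2 fell, among them Mcm6 (-0.64 ± 0.17), and Rrm2 rose by 0.75 ± 0.22. Among all genes 3% were called lower and 4.46% higher in that sort. Counts this small were not read as a change of the list. Without irradiation 7 of the 14 were higher in LGR5hi than LGR5lo cells, among them Mcm6 at 0.69 ± 0.17 (adjusted p = 0.0187, limma), and none was lower. Among all genes 4.61% were called higher and 4.92% lower in that comparison.

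These irradiation results comprise 44 called values for the genes of the lists, of which 33 kept their call without each of the 17 arrays in turn. Median centring ended 31 of the 44 calls, and 13 kept theirs in every leave-out and every other alternative apart from the single slides. Of the 11 that lost their call in a leave-out, Cdkn2d and Myc were in LGR5hi cells, where Myc reached an adjusted p of 0.100 (limma). The remaining 9 were in LGR5lo cells. Leaving out 1 array took the adjusted p as high as 0.0948 for Tfdp1, 0.0808 for Fbxw7, 0.129 for Cks1b, 0.158 for Fbxo4 and 0.0898 for Lef1. Among the others it reached 0.0930 for Ccna2, 0.111 for Mcm6 and 0.130 for Rrm2. Calls of list genes between the sorts were not put through the leave-outs or the other alternatives.

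The genes whose values ran most closely with each member over the 17 arrays were taken from 16273 named genes by Pearson correlation, as a description of arrays that share treatment, sort and scaling. For Ccnd1 these were Pmm1 (0.99), Ccdc86 (0.99) and Rev1 (0.98), and without non-irradiated LGR5lo replicate 4 the same genes had 0.97, 0.97 and 0.95. For Cdk4 they were Bcl7a (0.98), Swap70 (0.96) and Slc12a2 (0.96), and for Cdk6 Jaml (0.96), Pls3 (0.96) and again Slc12a2 (0.95). Slc12a2, a sodium, potassium and chloride cotransporter, was 1.38 ± 0.18 higher in LGR5hi than LGR5lo cells without irradiation. For Cdk2 the closest genes were Mtmr7 (0.92), Sin3a (0.92) and Sestd1 (0.91), for Ccnd3 Akr1b3, Plcl2 and Slc35a3 (0.94 to 0.93) and for Cdc25a Scamp3, Arhgef7 and Trim25 (0.94 to 0.86). Lower values were found for Ccne1 with Ciapin1, Psmd1 and Gsr (0.90 to 0.89), for Ccnd2 with Arrdc2, Tcp11l2 and Hoxb7 (0.79 to 0.77) and for Ccne2 with Agfg1, Kin and Cxcl9 (0.78 to 0.76).

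The probes lie at these places in the mouse build mm9, as the files give them. The Ccnd1 probe is at chr7:152116202-152116261, that of Ccnd2 at chr6:127098696-127098755 and the tested Ccnd3 probe at chr17:47736579-47736638. The tested Ccne1 probe is at chr7:38882937-38882960 and that of Ccne2 at chr4:11131423-11131482. Those of Cdk2, Cdk4 (tested) and Cdk6 are at chr10:128135658-128135717, chr10:126504279-126504338 and chr5:3522106-3522165, and that of Cdc25a is at chr9:109796331-109796390. Exon and UTR annotation of that build was not used here.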

How the data were processed

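Deposited scanner files give each spot's linear Cy3 intensity after background subtraction by Agilent Feature Extraction (10.7.3.1, per the submitters' processing notes). A log2 table that the authors deposited for the series served to rebuild 1 array. The rebuilding, tested on the 16 whole files, met a tolerance of 0.02 log2. Processed signals were scaled to each array's 75th percentile, and outlier spots left out. Probes well above background on at least 4 arrays were kept (41480 of 55681); the brightest probe stood for a gene. A limma model (version 3.58.1, R 4.3.3) of the 4 groups used all 17 arrays; Python 3.11.15 made the summaries. The number of arrays limits precision.

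Within an arm, LGR5hi and LGR5lo arrays with the same number moved together around their group means (correlations 0.12 to 0.46 over 8 pairs) and count as paired. Arrays with the same number across arms did not (-0.10 to 0.22). The main model held group means only and left the pairs out. They entered only as an alternative, so the main p-values between the sorts do not use the pairing. Replicates 1 and 2 shared a slide, as did 3 and 4. Non-irradiated LGR5lo replicate 5 was alone on its slide and had no LGR5hi partner.

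The 9 genes, the lists and the rule for named genes (up to 4 called genes a list by smallest p after irradiation in each sort; the 3 closest genes to each of the 9) were chosen with earlier results of these data known. For the comparison of the sorts, list genes were chosen for mention after their values were seen. Of the list genes that this rule takes, 1 is not reported here.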

Additional observations from a re-analysis of the deposited data

Results flagged for a closer look

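In 36 groups of 4 or 5 arrays (9 genes in 4 groups), 3 held an array far from the others by Dixon's criterion, where chance gives about 1 in 20. For Ccnd1 these were non-irradiated LGR5lo replicate 4, at a normalized log2 signal of 0.79 with the next array at 4.12, and irradiated LGR5hi replicate 4, at 5.40 with the next at 6.26. The first sets the error of every Ccnd1 test. Without the second the irradiation difference in LGR5hi cells was 1.54. Among arrays with a whole file, both had more outlier spots and a lower share of spots above background than any other. Whether this bears on their Ccnd1 values was not tested. For Ccne2, non-irradiated LGR5lo replicate 5 was at -7.15 with the next at -5.69, in a group with no array well above background.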

How the results depend on the processing

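After irradiation in LGR5hi cells the number of the 9 genes called was 2 with quantile normalization, the mean of a gene's probes, number as a replicate block, slide as a block or a trended and robust variance. It was 4 with array weights, 3 with the compared groups alone and 0 under median centring and on either slide alone; leaving out each array gave 1 to 2. In LGR5lo cells it was 0 with normexp background correction, with no filter, with arm and number as a random replicate block, with the compared groups alone, on either slide alone, and without the rebuilt array and the one that stood apart, an alternative chosen after seeing the data. Under quantile normalization it was still 1, but Ccnd1 was lost (1.91, adjusted p = 0.0755) and Ccnd3 gained (-0.73, adjusted p = 0.0387). It was 2 with a trended and robust variance, and 0 to 2 with each array left out. The count for the difference of effects was 0 to 0 with each array left out. Between the sorts without irradiation it was 1 under median centring, with the compared groups alone and on the slide of replicates 3 and 4, 0 on that of replicates 1 and 2, and 2 to 3 with each array left out. With irradiation it was 0 under median centring and on either slide alone, 2 with array weights, and 1 to 1 with each array left out. The paired replicate block changed no other call of the 9 genes. With sex as a covariate none of the calls of the 9 genes was lost. In LGR5lo cells the sign of the irradiation difference turned under median centring for Cdk2 (0.17), Ccnd2 (0.32) and Cdk4 (0.37) and on the slide of replicates 1 and 2 for Ccne2 (-0.37); that of Cdk6, at 0.00, turned in several alternatives. Median centring moved the median of all genes in LGR5lo cells from -0.13 to 0.40 and that between the non-irradiated sorts from -0.08 to 0.39, and the causes of these changes were not tested. Of 1588 alternative values for the 9 genes, 54 crossed the threshold and 73 had the opposite sign. On a single slide each group has at most 2 arrays.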
